A study of Mus musculus with 3 samples.

Results

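The collagen genes were taken as every row whose gene symbol has the form Col, number, a, number, which gave 42 of the 22068 genes in the deposited files. By the structures their chains form, 11 were fibrillar collagens, 6 basement membrane collagens, 9 FACIT collagens (fibril-associated collagens with interrupted triple helices) and 16 others. The basement membrane class held the type IV genes only, and Col18a1 was counted among the others. Of the 42, 16 had a mean level of at least 1 RPKM (reads per kilobase of gene model, scaled to the same number of reads in each library) over the libraries and were compared, and 26 lay below that level. All but Col16a1 of the 16 reached 1 RPKM in each of the 3 libraries. The RNA came from C2C12 cells, a mouse myoblast line that fuses into myotubes when serum is lowered. Cells were infected with lentivirus, and blasticidin selected the stable ones. The virus carried no insert (control), Linc-RAM, a long non-coding RNA of skeletal muscle, under the CMV promoter (overexpression), or a short hairpin RNA against it (knockdown). All 3 populations spent 12 h in differentiation medium with 2% horse serum before polyadenylated RNA was isolated, and the study asked how the level of Linc-RAM affects gene expression during differentiation. The labels do not say which hairpin was used or whether a line was 1 clone.

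Collagens are secreted proteins of 3 chains wound into a triple helix, in which glycine recurs at regular steps. Fibrillar collagens assemble into the banded fibrils of connective tissue, and type IV collagen forms the open network of basement membranes that surrounds each muscle fibre. FACIT collagens sit on the surface of fibrils, type VI collagen forms beaded microfilaments next to the basement membrane of muscle, and mutations in type VI collagen genes cause muscle disease. In muscle tissue most fibrillar collagen is made by fibroblasts, but cultured myoblasts also make it.

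Only 1 library was sequenced per condition, so no difference between these libraries has a replicate check and no p-value was computed. The study also measured some genes, among them MyoD, MyoG and Col4a1, by quantitative PCR, which is not part of these data. The 2 changed populations were set against the same control library, and those 2 comparisons are therefore not independent. Read totals and reads per gene were inferred from the RPKM values, as described under data processing. The inferred totals were 5130481 reads for control cells, 2105513 for overexpressing cells and 1878146 for knockdown cells. The 95% intervals given with ratios are exact binomial (Clopper-Pearson) intervals of the recovered reads and cover counting error only. Reads of Linc-RAM, listed as 2310015B20Rik, numbered 0 in control cells, 1 in overexpressing cells and 0 in knockdown cells, so its level does not check the labels.

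Col1a2 and Col3a1, both fibrillar chains, were the most abundant collagens in all 3 libraries. Col1a2, the alpha 2 chain of type I collagen, was at 178 RPKM in control cells, 123 in overexpressing cells and 151 in knockdown cells. Col3a1, the chain of type III collagen, was at 163, 167 and 148 RPKM, and all values given in threes follow this order of control, overexpression and knockdown. In the control only 0.836% of the 10172 genes with a mean of at least 1 RPKM lay above Col1a2 and 0.934% above Col3a1. The 42 collagens together made up 0.472% of all summed RPKM in control cells, 0.349% in overexpressing cells and 0.477% in knockdown cells. As a share of reads these were 0.443% (95% interval 0.437 to 0.449), 0.344% (0.336 to 0.352) and 0.444% (0.434 to 0.453). The overexpression library thus held the smallest collagen share on both measures, and the intervals of the control and knockdown shares of reads overlapped. In bulk RNA such as this, fewer cells that make collagen and less collagen RNA per cell cannot be told apart.

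**Figure D1:**
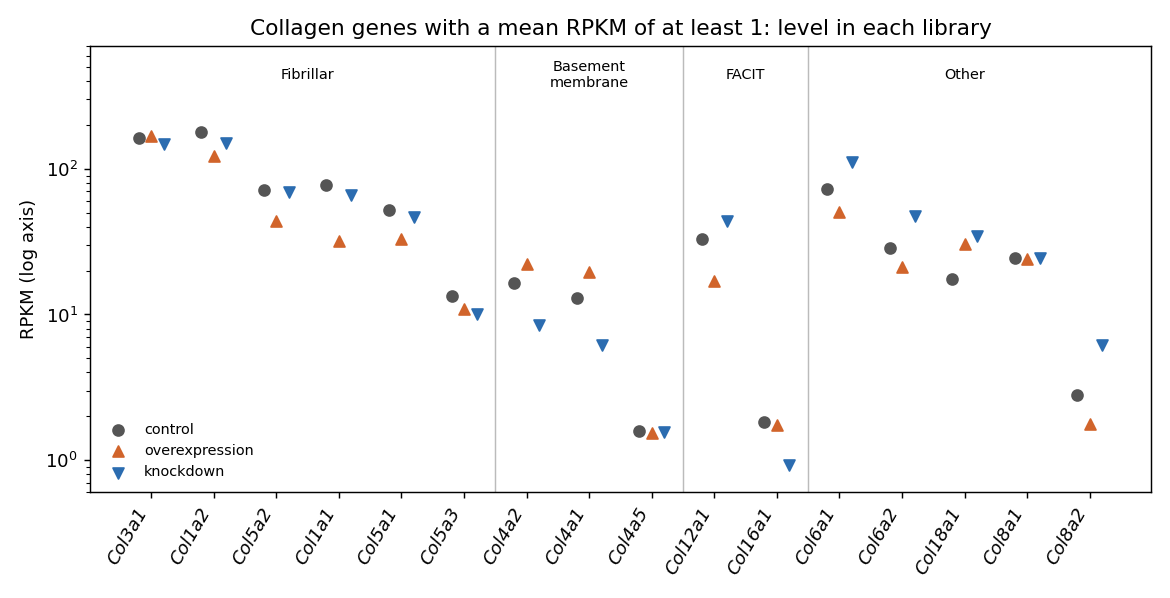
RPKM (log axis) of the 16 collagen genes with a mean of at least 1 RPKM, in the control (circles), overexpression (upward triangles) and knockdown (downward triangles) libraries, 1 library each, sorted by class. Col1a1 stood at 32.0 RPKM with overexpression against 78.2 in the control, and Col4a1 and Col4a2 had their highest value with overexpression and their lowest with knockdown.

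With overexpression, most fibrillar chains lay below the control. Col1a1 encodes the alpha 1 chain of type I collagen and lies on chromosome 11 of mm9 (94797538 to 94814356). Its level was 78.2 RPKM in control cells, 32.0 in overexpressing cells and 65.7 in knockdown cells. It stood alone among the 16 members in a difference of at least 2-fold between overexpression and control, with a ratio of 0.410 (95% interval 0.363 to 0.462, from 1884 and 317 reads). No member was at least 2-fold higher with overexpression. Of all genes in this comparison 3.64% were past 2-fold upwards and 3.47% downwards, so a count of 1 in 16 is close to that background. At 1.5-fold, 2 members were higher (10.6% of all genes) and 5 were lower (9.52%). Across the 16 members the ratio to the control was below 1 for 12 and above 1 for 4, and over all genes it was below 1 for 49.6%. The median log2 ratio was −0.36 for the members and 0.00 for all genes.

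Col1a2 and the type V chains lay below the control at smaller distances than Col1a1, while Col3a1 lay near it. Col5a1 and Col5a2 are chains of type V collagen, which is built into type I fibrils and limits their diameter. Col5a1 was at 52.5, 33.1 and 46.6 RPKM in the 3 libraries, a ratio of 0.631 with overexpression (0.575 to 0.692). Col5a2 was at 72.2, 44.1 and 69.5 RPKM, a ratio of 0.610 (0.558 to 0.667). Both were thus lowest with overexpression. Col1a2 stood at 0.688 of the control (0.647 to 0.731), and Col5a3, a further type V chain, at 0.816 (0.669 to 0.991) from 13.3 and 10.8 RPKM. Col3a1 stood at 1.03 (0.972 to 1.08), a log2 ratio of 0.04 that became −0.04 when RPKM was rescaled to equal sums in every library. The 16 members were abundant, with a median level of 29.4 RPKM against 6.14 over all genes compared and a median of 592 reads in the control against 100, so their intervals were narrower than those of most genes. For 11 of the 16 the interval with overexpression left out 1, and for 20.4% of all genes.

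With knockdown, Col1a1, Col1a2, Col5a1 and Col5a2 lay nearer to the control than with overexpression, while Col3a1 and Col5a3 lay farther from it. The ratios of the 6 chains ran from 0.757 for Col5a3 (0.610 to 0.933) to 0.963 for Col5a2 (0.890 to 1.04), with Col1a1 at 0.841 (0.765 to 0.923), Col1a2 at 0.847 (0.798 to 0.898), Col5a1 at 0.888 (0.816 to 0.965) and Col3a1 at 0.907 (0.856 to 0.961). None of the 6 was as far as 1.5-fold from the control. Over all 16 members, 10 had a ratio below 1 with knockdown (51.6% of all genes), and for 12 the interval left out 1 (21.8%). At 1.5-fold, 4 were higher (10.5%) and 3 were lower (12.1%). Summed over the 11 fibrillar genes, the level was 558 RPKM in control cells, 411 in overexpressing cells and 493 in knockdown cells. Without Col3a1, the chain of highest mean level, these sums were 395, 243 and 345 RPKM.

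**Figure D2:**
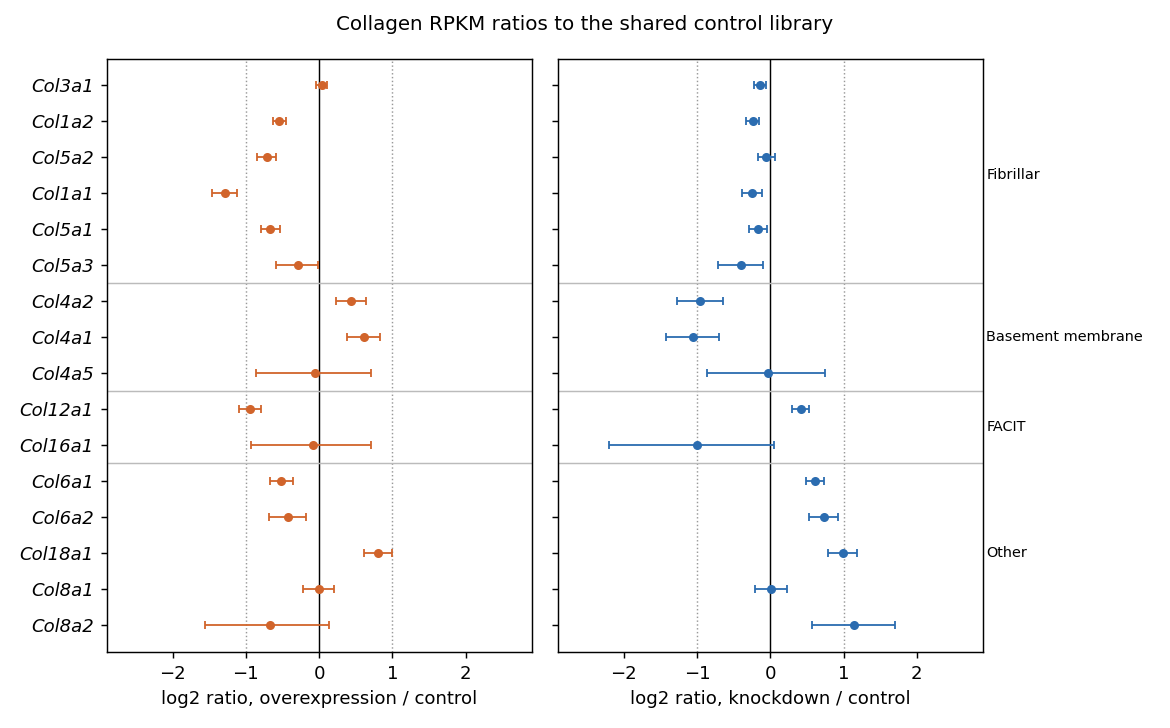
Log2 ratio of RPKM to the control library for overexpression (left) and knockdown (right) for the 16 collagen genes, with 95% counting intervals as bars and dotted lines at 2-fold. Both panels use the same control library. Past the 2-fold lines lie Col1a1 on the left, and Col4a1 and Col8a2 on the right.

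The level of Col1a1 relative to its partner chain differed between the libraries. Type I collagen holds Col1a1 and Col1a2 chains in unequal numbers, with more of the alpha 1 chain. The ratio of Col1a1 to Col1a2 RPKM was 0.438 in control cells (95% interval 0.415 to 0.462), 0.261 in overexpressing cells (0.230 to 0.295) and 0.435 in knockdown cells (0.395 to 0.479). The ratio with overexpression was 0.596 of that in the control (0.520 to 0.682), while with knockdown it was 0.993 of it (0.888 to 1.11). This ratio needs no scaling between libraries, although the position of the reads within each gene was not analysed here. The partner chains of types IV, V and VI had ratios whose changes between any 2 libraries had intervals that held 1. In the order control, overexpression, knockdown, Col4a1 over Col4a2 was 0.783, 0.884 and 0.733, Col5a1 over Col5a2 0.727, 0.751 and 0.670, and Col6a1 over Col6a2 2.54, 2.39 and 2.34.

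**Figure D3:**
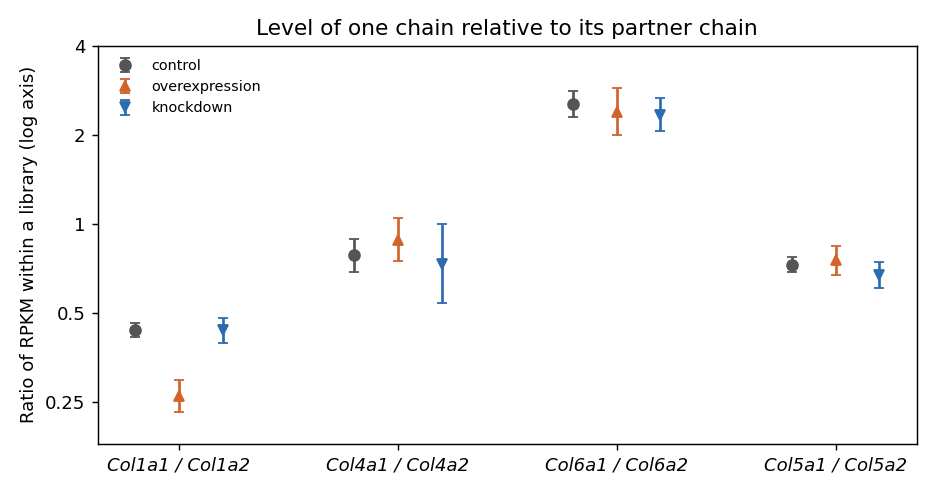
Ratio of the RPKM of one chain to that of its partner chain within each library (log axis), with 95% counting intervals as bars. The ratio of Col1a1 to Col1a2 was 0.261 with overexpression and 0.438 and 0.435 in the control and knockdown libraries, and the 3 other pairs had overlapping intervals in all libraries.

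The basement membrane chains Col4a1 and Col4a2 exceeded their control level in overexpressing cells and were under it in knockdown cells. Both encode chains of the same type IV trimer, which is found in nearly all basement membranes. They lie head to head on chromosome 8 of mm9, where Col4a1 ends at 11312826 on the reverse strand and Col4a2 starts at 11312805 on the forward strand, so that the 2 genes share 22 bases. The RefSeq starts on the GRCm38.p6 build have the same spacing. The 30 bases around the CCAAT letters before each start are shown, with the motif in capitals and in the direction of each gene. CCAAT and its reverse complement ATTGG were searched on both strands in the 250 bases before each start. They were found 145 bases before the Col4a1 start (chr8:11312954-11312983, reverse strand) and 32 bases before the Col4a2 start (chr8:11312761-11312790, forward strand), and 33.8% of all 32851 promoters of that length hold the motif. The motif was also found before Col1a2, Col4a5, Col5a3, Col16a1 and a start of Col18a1, so it is not particular to this pair. Its part in the ratios was not tested.
Col4a1: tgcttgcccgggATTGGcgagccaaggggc
Col4a2: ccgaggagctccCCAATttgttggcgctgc

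Col4a1 was at 12.9 RPKM in control cells, 19.7 in overexpressing cells and 6.2 in knockdown cells. Col4a2 was at 16.4, 22.2 and 8.45 RPKM. The order of the libraries was thus the same for both genes. With overexpression, Col4a1 stood at 1.53 (95% interval 1.31 to 1.78) and Col4a2 at 1.35 of the control (1.17 to 1.56), and with knockdown at 0.481 (0.373 to 0.614) and 0.514 (0.412 to 0.636). With knockdown, Col4a1 was the 1 member at least 2-fold lower, against 4.19% of all genes, and Col4a2 lay just inside that limit. Col4a5, a chain of another type IV trimer encoded on chromosome X, was at 1.59, 1.54 and 1.56 RPKM. Its ratios of 0.965 (0.553 to 1.63) and 0.979 (0.547 to 1.68) come from 53, 21 and 19 reads, so a difference within those bounds was not detectable. Of the remaining chains, Col4a3 and Col4a6 had at most 2 reads in any library and Col4a4 had none. The 6 basement membrane genes summed to 31.0 RPKM in control cells, 43.6 in overexpressing cells and 16.2 in knockdown cells.

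Of the muscle lineage genes measured, Myod1, Des and Cdh15 had the order of Col4a1 and Col4a2 over the libraries, with intervals to the control that left out 1. The 7 listed markers (Myod1, Myf5, Myog, Des, Cdh15, Chrna1 and Mef2c) summed to 375 RPKM in control cells, 556 in overexpressing cells and 213 in knockdown cells, most of it from Des. Of the 6 measured, 2 were past 2-fold upwards with overexpression (3.64% of all genes), and with knockdown 2 were past it downwards (4.19%). Myod1, a master regulator of the lineage, was at 16.7, 34.1 and 9.76 RPKM, with ratios to the control of 2.04 (1.61 to 2.58) and 0.584 (0.391 to 0.85). Des, the muscle intermediate filament protein, was at 291, 386 and 145 RPKM, with ratios of 1.33 (1.25 to 1.41) and 0.499 (0.456 to 0.545). Cdh15 encodes M-cadherin of myoblasts and was at 22.6, 41.8 and 10.9 RPKM, with ratios of 1.85 (1.56 to 2.18) and 0.480 (0.357 to 0.636). Myog, which acts after Myod1, was above the control with overexpression at 3.95, 22.1 and 3.60 RPKM, but its interval with knockdown held 1 (0.911, 0.397 to 1.91). Both intervals of Myf5, another regulator of the lineage, held 1, at 11.7, 15.7 and 10.5 RPKM. Chrna1, a subunit of the acetylcholine receptor, was lowest in the control at 28.7, 55.6 and 32.9 RPKM. All 6 were thus detected in cells labelled as myoblasts. The part of these genes in the collagen differences was not tested.

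Among the FACIT collagens, Col12a1 carried nearly all of the signal and was lowest with overexpression. Col12a1 lies on chromosome 9 of mm9 (79446798 to 79566638) and encodes type XII collagen, found on the surface of type I fibrils. It was at 32.8 RPKM in control cells, 17.1 in overexpressing cells and 43.8 in knockdown cells. These values come from 1964, 420 and 959 reads, and the knockdown library was the high one. The ratios were 0.521 with overexpression (95% interval 0.468 to 0.579) and 1.33 with knockdown (1.23 to 1.44). With RPKM rescaled to the same sum in every library, which moved all genes by 0.08 on the log2 scale, its log2 ratio with overexpression went from −0.94 to −1.02, past 2-fold. Col16a1, a FACIT chain of low level here, was at 1.83, 1.73 and 0.920 RPKM from 49, 19 and 9 reads. Its ratio with knockdown was 0.502 (0.217 to 1.03), and its interval held 1. Of the 9 FACIT genes, 5 were listed at 0 in all libraries (Col9a1, Col9a2, Col9a3, Col19a1 and Col22a1).

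**Figure D4:**
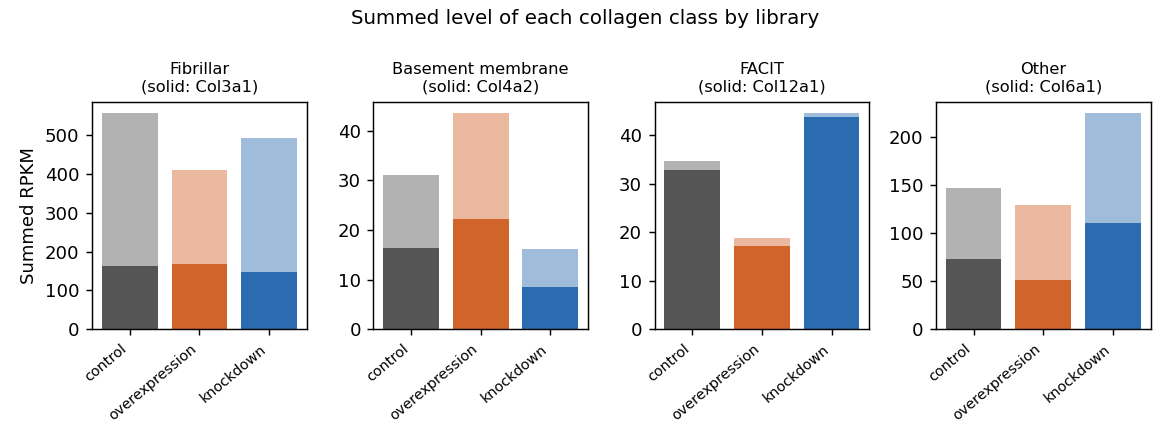
Summed RPKM of the fibrillar, basement membrane, FACIT and other collagens in each library, with the gene of highest mean level as the darker part of each bar and a separate axis from 0 for each class. Basement membrane collagens (type IV genes only) summed to 43.6 RPKM with overexpression and 16.2 with knockdown, while FACIT collagens summed to 18.8 and 44.7 RPKM.

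Col6a1 and Col6a2, the type VI chains measured, had the reverse order to Col4a1 and Col4a2. Col6a3, a further type VI chain, was not among the 42 collagen genes in the deposited files, so the sum of other collagens lacks it. Col6a1 (chromosome 10 of mm9, 76171537 to 76188913) and Col6a2 (chromosome 10, 76058507 to 76086375) encode the alpha 1 and alpha 2 chains of the beaded microfilaments. Col6a1 was at 72.8 RPKM in control cells, 50.9 in overexpressing cells and 111 in knockdown cells. Col6a2 was at 28.6, 21.3 and 47.4 RPKM. For both genes the lowest value was that with overexpression and the highest that with knockdown. The ratios with overexpression were 0.699 (95% interval 0.626 to 0.779) for Col6a1 and 0.743 (0.621 to 0.885) for Col6a2, and those with knockdown were 1.52 (1.4 to 1.66) and 1.65 (1.44 to 1.90).

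Col18a1 lay above the control in both changed populations. It encodes type XVIII collagen, a proteoglycan of basement membranes whose C-terminal fragment is endostatin. It was at 17.5 RPKM in control cells, 30.6 in overexpressing cells and 34.8 in knockdown cells. The control library was the low one of the 3. The ratios were 1.74 (95% interval 1.52 to 2.00) and 1.98 (1.73 to 2.27), which share that control. The ratio of overexpression to knockdown, 0.880 (0.761 to 1.02), had an interval that held 1. RefSeq gives 2 starts of this gene in the promoter table, and the deposited value per gene does not tell them apart.

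The chains of type VIII collagen, a network-forming collagen of short chains, differed from each other. Col8a1 was at 24.3 RPKM in control cells, 24.2 in overexpressing cells and 24.5 in knockdown cells, with ratios of 0.996 (95% interval 0.859 to 1.15) and 1.01 (0.865 to 1.17). Its level was thus nearly the same in all 3. Col8a2 was at 2.79, 1.75 and 6.15 RPKM from 62, 16 and 50 reads. Its ratio with knockdown was 2.20 (1.49 to 3.25), the 1 member at least 2-fold higher in that comparison, against 3.38% of all genes. Its ratio with overexpression was 0.629 (0.339 to 1.10). The ratio of Col8a1 to Col8a2 was 8.69 in control cells (6.69 to 11.5), 13.8 in overexpressing cells (8.32 to 24.5) and 3.98 in knockdown cells (2.92 to 5.52).

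Overexpression was then compared directly with knockdown, without the control library. Of the 16 members, 7 differed at least 2-fold, of which 2 were higher with overexpression and 5 were lower. Of all genes in this comparison 5.83% were past 2-fold upwards and 5.11% downwards. At 1.5-fold, 3 members were higher (14.3% of all genes) and 6 were lower (12.6%). The higher pair were Col4a1 at 3.17 (95% interval 2.46 to 4.14) and Col4a2 at 2.63 (2.10 to 3.33). The lower 5 were Col8a2 at 0.285 (0.152 to 0.510), Col12a1 at 0.391 (0.348 to 0.439), Col6a2 at 0.449 (0.370 to 0.542), Col6a1 at 0.459 (0.407 to 0.516) and Col1a1 at 0.488 (0.424 to 0.560). All 7 intervals left out 1, as did those of 11 of the 16 members against 19.8% of all genes. The ratio was below 1 for 11 members and for 47.9% of all genes. The median log2 ratio was −0.24 over the 16 members and 0.02 over all genes. By class, the summed level with overexpression was 2.69 times that with knockdown for basement membrane collagens, 0.833 for fibrillar, 0.421 for FACIT and 0.574 for other collagens. The basement membrane value is that of type IV genes only, as Col18a1, counted among the others, stood at 0.880 (0.761 to 1.02). The FACIT value rested on Col12a1, as without it the ratio was 1.88, from 19 reads and 9 reads of Col16a1.

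**Figure D5:**
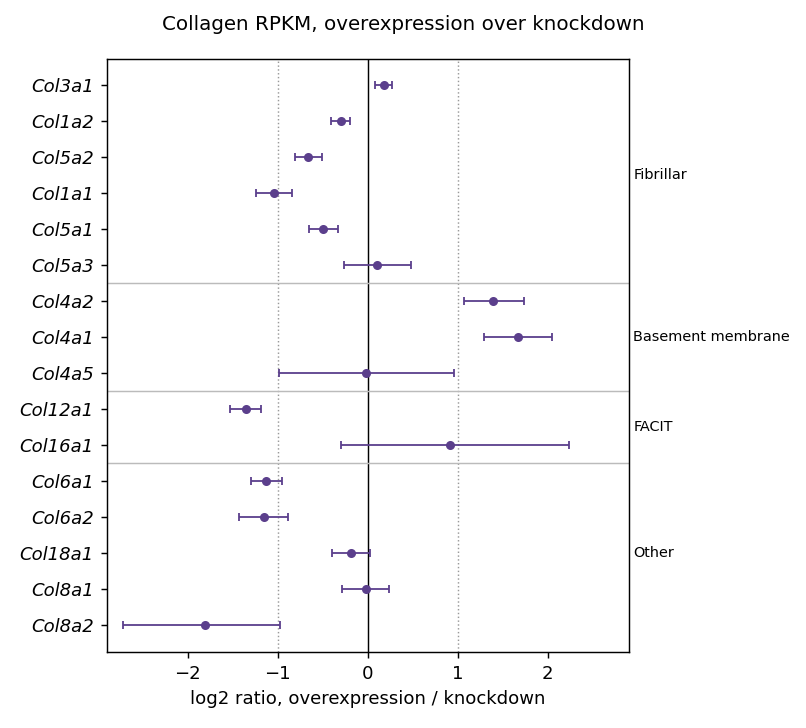
Log2 ratio of RPKM in the overexpression library to the knockdown library for the 16 collagen genes, with 95% counting intervals as bars and dotted lines at 2-fold. Col4a1 and Col4a2 lie to the right of the 2-fold line and Col1a1, Col12a1, Col6a1, Col6a2 and Col8a2 to the left.

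E-boxes, the CANNTG letters to which MyoD and related factors bind, were searched in the 250 bases before the RefSeq starts (GRCm38.p6) of the measured members. Of the 16, 13 had an entry in the promoter table, with 15 starts in all, and Col1a1, Col12a1 and Col5a2 had none. CANNTG, which reads the same on both strands in this form, was found before 6 of the 15 starts, while 66.2% of all 32851 promoters hold it. It was not among the letters before Col4a1, Col4a2, Col6a2 and Col8a2, and was found 228 bases before Col6a1. Only these 250 bases were searched, so the absence of the letters does not show that a gene lacks MyoD sites. The study used MyoD ChIP-seq peaks in promoter regions and names Col4a1 among the genes coregulated by Linc-RAM and MyoD. CAGCTG, a form of CANNTG that MyoD often binds, was found before Col16a1 (42 bases) and Col5a3 (81 bases), against 13% of all promoters. The windows are shown in the direction of the gene with the motif in capitals, for the CANNTG of Col6a1 and both CAGCTG forms, at chr10:76726255-76726284 (reverse strand), chr4:130047786-130047815 (forward strand) and chr9:20815131-20815160 (reverse strand).
Col6a1: tgttacactggaCAGTTGactctgagtggg
Col16a1: ggcgggccggccCAGCTGtgttccattagc
Col5a3: actttttccgtgCAGCTGtgggtcccttcc

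The 26 members below the level compared were rare in all libraries. Of these, 11 had no reads in any library (Col2a1, Col4a4, Col6a4, Col6a6, Col9a1, Col9a2, Col9a3, Col13a1, Col19a1, Col22a1 and Col25a1), and a count of 0 allows up to 3 reads in a library. Cartilage collagens were among them, as Col2a1 and the 3 type IX chains were at 0 reads, Col10a1 had 3 reads in the control alone, and Col11a1 had 5, 1 and 3. The highest mean was that of Col27a1, a fibrillar chain of cartilage, at 0.306 RPKM in control cells, 0.124 in overexpressing cells and 1.26 in knockdown cells, from 12, 2 and 18 reads. Col23a1, a transmembrane collagen, had 9, 1 and 7 reads, and Col7a1, the chain of anchoring fibrils, had 14, 1 and 8. Col17a1 had 5, 4 and 2 reads, Col24a1 4, 4 and 1, and Col11a2 4, 0 and 1. Col14a1, Col15a1 and Col20a1 had 2 reads each in the control alone, and Col6a5 and Col28a1 had 1 read each in the knockdown library alone. With knockdown, Col27a1 stood at 4.10 of the control (95% interval 1.87 to 9.33), and overexpression over knockdown was 0.0991 for this gene (0.0112 to 0.414). The intervals of Col7a1 (0.112, 0.00251 to 0.832) and Col23a1 (0.127, 0.00283 to 0.992) in overexpression over knockdown also left out 1, each from 1 read with overexpression. All other ratios of the members below 1 RPKM had intervals that held 1.

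Enzymes and chaperones that fold and modify collagen lay, in the median, below the control with overexpression. Of 18 listed, 16 were measured. With overexpression 1 was past 2-fold, downwards (3.47% of all genes), and with knockdown none was. The median log2 ratios were −0.43 and −0.15, beside 0.00 and −0.02 over all genes. The lower gene was P4ha3, a subunit of prolyl 4-hydroxylase, at 7.18 RPKM in control cells, 2.62 in overexpressing cells and 4.28 in knockdown cells, a ratio of 0.364 with overexpression (95% interval 0.186 to 0.656). Serpinh1, the collagen chaperone HSP47, was at 558, 368 and 406 RPKM, so that overexpressing cells stood at 0.658 (0.625 to 0.693) and knockdown cells at 0.726 (0.690 to 0.765) of the control. Leprel2, a prolyl 3-hydroxylase, was the 1 gene of the list at least 2-fold apart between overexpression and knockdown, at 0.463 (0.224 to 0.913). In that comparison 5.83% of all genes were past 2-fold upwards and 5.11% downwards, so a count of 1 in 16 is close to that background.

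Of 13 listed genes of collagen secretion and propeptide processing, 9 were measured. With overexpression 1 was higher (3.64% of all genes) and 1 lower (3.47%) by at least 2-fold, and with knockdown 1 was higher (3.38%) and none lower. With 9 genes, a count of 1 is not set apart from these shares. Adamts2, which removes the N-terminal propeptide of fibrillar collagens, was at 4.79 RPKM in control cells, 1.52 in overexpressing cells and 3.56 in knockdown cells, a ratio of 0.318 with overexpression (95% interval 0.199 to 0.488). Adamts14, a related protease, was at 2.89, 6.87 and 2.16 RPKM, a ratio of 2.37 with overexpression (1.70 to 3.31), on the other side of the control from Adamts2. Over knockdown these ratios were 0.428 (0.252 to 0.710) for Adamts2 and 3.19 (1.94 to 5.44) for Adamts14. Ctage5, which acts in the export of collagen from the endoplasmic reticulum, was at 2.34 of the control with knockdown (1.18 to 4.62), from 21 and 18 reads. Pcolce, an enhancer of C-terminal propeptide removal, was abundant at 198, 196 and 164 RPKM.

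All 6 listed cross-linking enzymes were measured. None was past 2-fold with overexpression, and with knockdown 2 were lower by at least 2-fold (4.19% of all genes). The median log2 ratios were −0.28 and −0.07, beside 0.00 and −0.02 over all genes. Loxl2, which cross-links type IV collagen among other substrates, was at 10.8 RPKM in control cells, 19.1 in overexpressing cells and 4.63 in knockdown cells. Its order over the libraries was that of Col4a1 and Col4a2, with ratios of 1.77 (95% interval 1.47 to 2.12) and 0.428 (0.306 to 0.588), and its ratio of overexpression to knockdown was 4.12 (2.98 to 5.83). Lox, the main cross-linker of fibrillar collagen and elastin, was at 227, 119 and 102 RPKM, with ratios of 0.524 (0.487 to 0.563) and 0.449 (0.414 to 0.487). Loxl4 was at 2.76, 2.10 and 5.09 RPKM and stood at 0.412 in overexpression over knockdown (0.243 to 0.680).

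Other proteins of the basement membrane were mixed. Of 16 listed, 11 were measured, and with knockdown none was past 2-fold. The median log2 ratios were 0.09 and −0.12. Nid1, which links laminin to type IV collagen, was at 54.9, 81.0 and 50.4 RPKM, a ratio of 1.48 with overexpression (1.36 to 1.60). Its relative Nid2 was at 36.6, 24.9 and 38.0 RPKM, a ratio of 0.680 (0.590 to 0.782). Among 8 listed collagen receptors and uptake genes, 5 were measured and 1 was past 2-fold downwards (3.47% of all genes), the collagen-binding integrin chain Itga11 at 0.348 of the control with overexpression (0.143 to 0.734, from 56 and 8 reads).

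Markers of other cell types that make collagen were mixed. Of 11 fibroblast and tenocyte markers, 4 were measured and 4 were at 0 in all libraries (Thy1, Lum, Tcf21 and Tnmd). Their summed level was 94.0 RPKM in control cells, 74.6 in overexpressing cells and 90.0 in knockdown cells, most of it from Pdgfrb at 58.9, 30.7 and 48.1 RPKM and Scx at 29.3, 35.5 and 33.3 RPKM. Pdgfra stood at 0.408 in overexpression over knockdown (95% interval 0.271 to 0.606) and Dcn at 5.65 (1.66 to 29.8, from 19 and 3 reads), so the list had no common order. Of 9 cartilage and bone markers, 5 were at 0 in all libraries, among them Acan, Ibsp and Alpl, and the list summed to 13.8, 17.1 and 17.1 RPKM, and 2 of its genes were measured. In overexpression over knockdown, Runx2, a regulator of bone cells, stood at 0.443 (0.326 to 0.596) and Sox9, a regulator of cartilage cells, at 1.98 (1.4 to 2.84). The 4 endothelial markers summed to at most 0.248 RPKM, and the 3 bone marrow derived markers to at most 1.58 RPKM, all of it Cd68. The part of these cell types in the collagen differences was not tested.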

How the data were processed

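Reads had been aligned by the authors to the mm9 assembly with TopHat, for which the submitters' processing notes list version 1.4.1, and read coverage per gene was computed with DEGSeq. The deposited values are RPKM, 1 per gene symbol in each library. The gene annotation and the treatment of reads with several matches are unknown here. Ratios used these values without an added constant, for genes whose mean was at least 1 RPKM, and 2-fold, the criterion in the study's methods, served as the limit, with 1.5-fold, which the study also used, as an alternative. The read total of a library was taken as the lowest for which genes of 1 to 6 reads gave whole numbers at a GENCODE transcript length at least 0.85 times as often as the best total did. Reads per gene then followed at an annotated length or, failing that, at the whole length nearest to the longest transcript that gave whole reads in all 3 libraries within 1e-05 of the count. Reads were obtained for 98.6% of the genes compared, and both steps were tested on simulated data. The simulation used genes whose reads had been recovered, at the recovered lengths, so it cannot show that lengths without an annotated match are right. Of the 16 members compared, 4 had reads at an annotated length. With 1 library per condition no test of the conditions exists. Members, gene lists and limits were chosen with earlier results of these data known. All members with a mean of at least 1 RPKM are named, and of the other lists genes past 2-fold with an interval without 1, plus abundant genes. An item that this rule would name is not reported here. Alternatives were other filters, added constants, scalings and limits. Gene positions come from GENCODE on mm9 and promoter sequences from RefSeq on GRCm38.p6. The software was Python 3.11.15 with scipy 1.17.1, numpy 2.4.6, matplotlib 3.10.9 and pandas 2.3.3.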

Additional observations from a re-analysis of the deposited data

How the results depend on the processing

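No paired analysis was possible because each condition has 1 library, and for the same reason no library could be left out. The numbers of members at least 2-fold higher and lower were 0 and 1 with overexpression, 1 and 1 with knockdown, and 2 and 5 for overexpression over knockdown. Of the partner lists, which held 16, 9, 6, 11 and 5 measured genes, 5, 3 and 7 genes were past 2-fold in these comparisons. Over all genes, 3.64% were past 2-fold upwards and 3.47% downwards with overexpression. The shares were 3.38% and 4.19% with knockdown, and 5.83% and 5.11% for overexpression over knockdown. The partner counts are not far from those shares, which were computed at the main filter only. Where the numbers of members and partner genes moved by over 1.5 times, the values were as follows. With no filter they were 2 and 11, 5 and 7, and 4 and 12, with 13, 11 and 11 partner genes, most of the added members having few reads. At a mean of at least 0.5 RPKM, 2 members were lower with overexpression and 2 higher with knockdown. At a mean of at least 5 RPKM, 0 members were higher with knockdown, and 0 partner genes with overexpression and 1 in the direct comparison were past 2-fold. With 1 RPKM added, 0 members were higher and 0 lower with knockdown, and 3 partner genes were past 2-fold in the direct comparison. At 1.5-fold the members were 2 and 5 with overexpression and 4 and 3 with knockdown, and the partner genes 11, 9 and 14. Over all genes, 10.6% were past 1.5-fold upwards and 9.52% downwards with overexpression. The shares at 1.5-fold were 10.5% and 12.1% with knockdown, and 14.3% and 12.6% in the direct comparison. Scaling by the median ratio or the upper quartile gave 2 members higher with knockdown, as Col18a1, at 1.98 in the main comparison, passed 2-fold, and rescaling to equal sums (TPM) gave 2 lower with overexpression. A filter on the control library alone, 0.1 RPKM added, the counting interval as a further condition, and leaving out genes listed at 0 kept these counts within 1.5 times. The ratios of single members lay within their counting intervals under every constant and scaling, except Col3a1 with overexpression under TPM (log2 ratio −0.04 against 0.04).

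Without the member of highest mean level, the ratios of summed RPKM with overexpression were 0.616 for fibrillar, 0.872 for FACIT, 1.05 for other and 0.715 for all collagens, those with knockdown 0.463 for FACIT and 1.04 for all, and those of overexpression over knockdown 0.706, 1.88, 0.685 and 0.690 in the first order. The FACIT ratios without Col12a1 rest almost wholly on Col16a1, so the FACIT direction in the direct comparison, 0.421 with it and 1.88 without it, is that of a single gene. Leaving out the member of highest level also turned the FACIT ratio with knockdown from 1.28 to 0.463. Col16a1 alone stood at 0.502 in that comparison, with an interval that held 1 (0.217 to 1.03). The ratio of other collagens with overexpression turned from 0.878 to 1.05 without Col6a1. Of the genes left in that sum, Col18a1 was above the control (17.5 and 30.6 RPKM in control and overexpressing cells), while Col6a2 was below it (28.6 and 21.3 RPKM). Why these genes differed was not tested. With TPM the fibrillar and all-collagen ratios were 0.696 and 0.739 with overexpression and 0.788 and 0.731 over knockdown. The collagen shares of the control and knockdown libraries were 0.443% and 0.444% as reads against 0.472% and 0.477% as RPKM. Depth limits Col4a5, Col16a1 and Col8a2 most, with 9 to 62 reads a library.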

Other observations

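Several collagen genes lie on the same chromosome within the distances given here (mm9), and such genes did not always differ alike between the libraries. Whether other genes lie between them was not examined. Col3a1 and Col5a2 point towards each other on chromosome 1 with 24.6 kilobases between them. With overexpression Col3a1 stood at 1.03 of the control (95% interval 0.972 to 1.08) and Col5a2 at 0.610 (0.558 to 0.667). On chromosome 10, Col6a1 and Col6a2 lie 85.2 kilobases apart on the same strand and had the same order over the libraries, while Col18a1, 326.0 kilobases from Col6a1, was above the control with overexpression, where Col6a1 was below it. With knockdown Col6a1, Col6a2 and Col18a1 were all above the control, at 1.52, 1.65 and 1.98. On chromosome X, Col4a5 and Col4a6 lie head to head with 1308 bases between them, and in the order control, overexpression, knockdown Col4a5 had 53, 21 and 19 reads and Col4a6 had 1, 2 and 0.

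Type III and type I collagen also differed in proportion. The ratio of Col3a1 to Col1a2 RPKM was 0.914 in the control (0.877 to 0.952), 1.36 with overexpression (1.27 to 1.46) and 0.979 with knockdown (0.911 to 1.05). With overexpression it was 1.49 times that of the control (1.37 to 1.62), and with knockdown 1.07 times (0.986 to 1.16).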
